A study of Danio rerio with 18 samples.

Results

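The genes described here make, take up and regulate cholesterol in whole zebrafish larvae. They were chosen by name, as 39 gene names covering the mevalonate steps, the steps to lanosterol and on to cholesterol, the SREBP (sterol regulatory element-binding protein) control proteins, uptake and intracellular transfer, and esterification and efflux. Of these, 38 names were matched to 39 gene IDs among the 31624 in the count table, npc2 having 2 IDs and insig2 none. A gene that passed the filter on low counts was tested, which left 34 of the 39 gene IDs. The other 5, namely sc5d, scap, soat1, a second npc2 ID and a second squalene epoxidase ID, had too few counts. The IDs of MVD, CYP51A1, ABCA1 and the second SQLE gene (ENSDARG00000063319) carried only a human symbol in the table used for matching. They stand for the names mvda, cyp51, abca1a and sqleb, and that the copies correspond was not tested.

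Cholesterol is built from acetyl-CoA through mevalonate, squalene and lanosterol by enzymes that sit mostly on the endoplasmic reticulum. In mammals, when sterols in that membrane fall, the escort protein SCAP carries SREBP2, the product of SREBF2, to the Golgi, where 2 proteases release a transcription factor that switches on nearly every enzyme of the pathway together with the LDL receptor. When sterols are plentiful, INSIG proteins hold the complex back, and these genes fall together. In fish larvae cholesterol comes from the yolk as well as from synthesis, and the larvae of this study were not fed.

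RNA-seq was performed on 18 libraries, each a pool of 5 whole larvae of the wild-type AB strain, in 6 groups of 3. The groups are named by incubation × challenge temperature. They were 24 × 32 °C larvae with LPS and their controls, 32 × 24 °C larvae with LPS and their controls, and 24 × 24 °C larvae with LPS and their controls. LPS was lipopolysaccharide from Pseudomonas aeruginosa, dissolved in the water for 24 h (10 mg/L in the sample labels, while the methods text gives another unit). Controls received no LPS but the same dose of phosphate-buffered saline, in which the LPS stock was made. Any change of temperature began at the first-feeding stage. In all groups LPS or saline was added 18 h after that stage, and larvae were taken 24 h later. All larvae were killed with tricaine and, in LPS groups, were survivors, in groups that had been picked for unequal mortality. In the paper, mortality with LPS was highest at 24 × 32 °C, where most larvae died, and few controls died. An effect of LPS and the selection of survivors therefore cannot be told apart. Larvae incubated at 32 °C reached first feeding sooner and were then cooled to 24 °C. Incubation temperature, age and that cooling therefore cannot be told apart. The move to 32 °C and any faster development it brings cannot be told apart either.

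Whole larvae hold every tissue, and in such samples fewer cells of a type and less RNA per cell cannot be told apart. Markers of 7 tissues or cell types were read in each library, and none of the markers matched was at 0 in all libraries. Libraries held 1868228 to 8261920 counts. Depth was 5075072 to 8261920 in the 24 × 24 °C controls and 1868228 to 2897261 in the 24 × 32 °C groups, so depth moves with that comparison. In the 32 × 24 °C larvae, replicate 1 of the LPS group and replicate 1 of the controls had summed hepatocyte markers of 795 and 819 CPM (counts scaled to library size, with TMM factors), against 2469 to 3864 CPM in the other 4 libraries of those groups. Replicate 1 was also the lowest of both groups in summed enterocyte and exocrine pancreas markers, and the highest in neural markers. Replicate 2 of the 32 × 24 °C LPS group stood apart in the cholesterol genes themselves, as described below. In the 24 × 32 °C LPS group, replicate 2 had 3693 CPM of hepatocyte markers, against 1946 and 2100 CPM in replicates 1 and 3. The methods say that the experiment was run 3 times with randomly chosen broodstock and that 3 replicates of each group were sequenced. That each pool of a group came from another run is not spelled out, and p-values measure the spread between these pools.

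Control larvae moved to 32 °C had less mRNA of the cholesterol pathway than control larvae kept at 24 °C. Of the 34 genes tested, 8 were lower and 0 higher as differentially expressed genes (DEGs), defined by an adjusted p under 0.05 in edgeR's quasi-likelihood test and a fold change of at least 1.5. Over all 15722 genes tested, 3.20% were lower and 3.01% higher. The 8 were hmgcs1, MVD, lss, hsd17b7, ebp, srebf2, ldlrb and stard4. The median log2 fold change of the 34 was -0.69 (all genes 0.0041), and 30 of them were negative. In 18 of the 34, every 24 × 32 °C control library was below every 24 × 24 °C control library, where 16.6% of all genes were. At an unadjusted p under 0.05, 12 of the 34 were lower and 0 higher, beside 11.3% lower and 11.4% higher over all genes. DESeq2 called 7 lower and 0 higher, beside 3.44% lower and 2.95% higher over all genes. Its 7 were sqlea and 6 of the 8, without MVD and lss, for which it gave low unadjusted p-values (0.00131 and 0.000652) but, through its own filter on low counts, no adjusted p.

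Summed over the 39 gene IDs, the level was 659 to 727 CPM in the 24 × 32 °C controls and 853 to 1010 CPM in the 24 × 24 °C controls. These ranges did not overlap. By role, the median log2 fold change was -0.72 for the 10 mevalonate genes, -1.82 for the 3 genes from squalene to lanosterol, -0.92 for the 8 from lanosterol to cholesterol, -0.39 for the 5 SREBP control genes, -0.28 for the 5 of uptake and transfer and 0.21 for the 3 of esterification and efflux. The roles were not tested against each other, and members of a role differed widely, from -2.02 to -0.05 among the 3 genes between squalene and lanosterol.

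**Figure D1:**
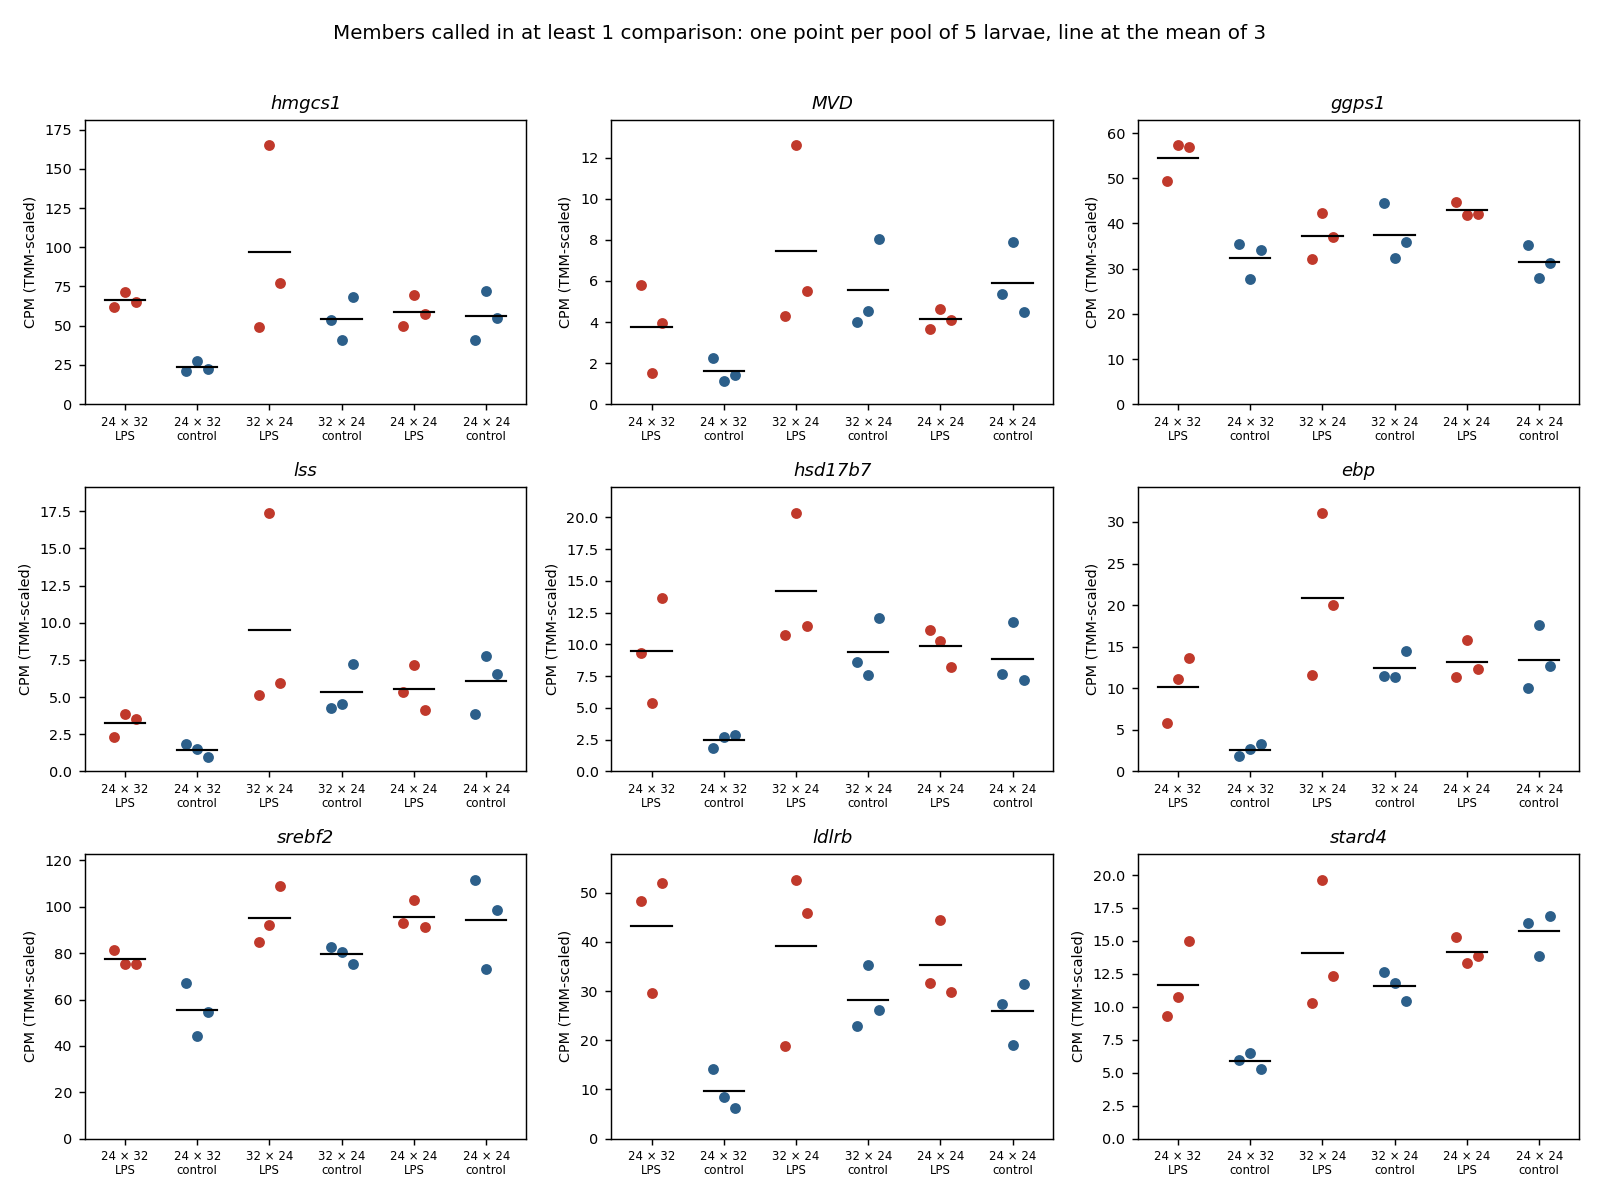
Each panel gives 1 gene that was a DEG in at least 1 comparison, with CPM (TMM-scaled, axis from 0) on the y axis and the 6 groups on the x axis. Each point is 1 library (red LPS, blue control) and the line is the mean of 3. In 7 of the 9 panels, all but ggps1 and MVD, the 3 libraries of the 24 × 32 °C controls lie below every other library.

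Of the mevalonate genes, hmgcs1 encodes HMG-CoA synthase, an early enzyme of the mevalonate route. It had 20.9, 27.3 and 22.5 CPM in the 24 × 32 °C controls, against 41.0, 72.2 and 55.1 CPM in the 24 × 24 °C controls. The groups did not overlap, and the difference of -1.25 ± 0.36 (log2, SE, n = 3 each) had an edgeR adjusted p of 0.0457. MVD, mevalonate diphosphate decarboxylase, had 2.24, 1.15 and 1.44 CPM in the 24 × 32 °C controls and 5.39, 7.90 and 4.47 CPM in the 24 × 24 °C controls. Its difference was -1.84 ± 0.51 (edgeR adjusted p = 0.0299), from 6, 3 and 3 counts against 28, 53 and 38. How reads shared between gene copies were counted was not tested. The other mevalonate genes named in the plot of fold changes ran between -1.34 (mvk, mevalonate kinase, edgeR adjusted p = 0.0966) and 0.04 (ggps1).

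Between squalene and lanosterol, lss, lanosterol synthase, closes the ring system of the sterols. It was at 1.87, 1.54 and 0.959 CPM in the 24 × 32 °C controls and 3.85, 7.75 and 6.58 CPM in the 24 × 24 °C controls. Every warm-shifted library was lower, by -2.02 ± 0.52 (log2, SE, edgeR adjusted p = 0.0201), on 5, 4 and 2 counts against 20, 52 and 56. The squalene epoxidase sqlea, which adds oxygen to squalene, had 2.24, 3.45 and 1.44 CPM in the 24 × 32 °C controls and 6.54, 10.3 and 9.05 CPM in the 24 × 24 °C controls. The groups did not overlap, but the difference of -1.82 ± 0.83 was not a DEG in edgeR (adjusted p = 0.207) and was one in DESeq2 (adjusted p = 0.0478). For fdft1, squalene synthase, the difference was -0.05 ± 0.39.

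Among the enzymes that turn lanosterol into cholesterol, ebp and hsd17b7 were DEGs. The gene ebp encodes the sterol isomerase also known as emopamil-binding protein. It stood at 1.87, 2.69 and 3.36 CPM in the 24 × 32 °C controls, against 10.0, 17.6 and 12.7 CPM in the 24 × 24 °C controls. That is 5.16-fold lower (log2 -2.37 ± 0.41, edgeR adjusted p = 0.00132), and the lowest 24 × 24 °C library was well above the highest 24 × 32 °C library. The sterol ketone reductase hsd17b7 had 1.87, 2.69 and 2.88 CPM in the 24 × 32 °C controls and 7.70, 11.8 and 7.17 CPM in the 24 × 24 °C controls. It was 3.59-fold lower (log2 -1.84 ± 0.40, edgeR adjusted p = 0.00794), again without overlap. The sterol dehydrogenase nsdhl was lower in every library without being a DEG (-1.18 ± 0.39, edgeR adjusted p = 0.062). The lanosterol demethylase CYP51A1 had 15.3, 34.5 and 6.71 CPM in the 24 × 32 °C controls and 13.7, 33.1 and 25.7 CPM in the 24 × 24 °C controls, which overlapped (-0.34 ± 0.63). Its sign rested on replicate 3 of the 24 × 32 °C controls, as the difference was 0.025 without that library. The nuclear envelope protein lbr, which also carries sterol reductase activity, was among 4 with a positive value, at 0.28 ± 0.14 (edgeR adjusted p = 0.233).

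The master regulator srebf2 was itself lower. It had 67.2, 44.1 and 54.7 CPM in the 24 × 32 °C controls and 112, 73.1 and 98.6 CPM in the 24 × 24 °C controls. Each of the 3 warm-shifted libraries was below all 3 others, by -0.77 ± 0.16 (log2, SE, edgeR adjusted p = 0.00624), or 1.70-fold. The other SREBP gene, srebf1, which in mammals serves mainly fatty acid synthesis, was sparse at 1.49, 2.30 and 0 CPM in the 24 × 32 °C controls and 2.50, 2.83 and 2.12 CPM in the 24 × 24 °C controls (-0.86 ± 0.88, edgeR adjusted p = 0.614). For insig1, the retention protein, the values were 40.3, 21.5 and 23.0 CPM in the 24 × 32 °C controls and 30.2, 36.5 and 32.1 CPM in the 24 × 24 °C controls. The groups overlapped (-0.21 ± 0.20, edgeR adjusted p = 0.571). The escort gene scap was not tested, with 1, 2 and 1 counts in the 24 × 32 °C controls and 6, 6 and 11 in the deeper 24 × 24 °C controls. The protease genes mbtps1 and mbtps2 differed by -0.01 ± 0.14 and -0.39 ± 0.23.

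In the uptake and transfer group, ldlrb encodes an LDL receptor and stard4 a soluble sterol carrier. Levels of ldlrb were 14.2, 8.44 and 6.23 CPM in the 24 × 32 °C controls and 27.3, 18.9 and 31.5 CPM in the 24 × 24 °C controls. All 3 were lower than any 24 × 24 °C library, by -1.403 ± 0.38 (log2, SE, edgeR adjusted p = 0.0330). With the replicate number as a block its edgeR adjusted p was 0.0507, and it was not a DEG. The values of stard4 were tight within each group, at 5.97, 6.53 and 5.28 CPM in the 24 × 32 °C controls and 16.4, 13.9 and 16.9 CPM in the 24 × 24 °C controls. It was 2.63-fold lower (log2 -1.395 ± 0.25, edgeR adjusted p = 0.00172). The paralog ldlra differed by -0.14 ± 0.39, and npc1 and the tested npc2 gene, which move cholesterol out of lysosomes, by -0.28 ± 0.20 and -0.08 ± 0.15. None of soat2 (cholesterol esterification), ABCA1 and abca1b (efflux to lipoproteins) was a DEG, with differences of 0.28, 0.21 and -0.64.

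The count of 8 depended on single libraries. It was 6 without replicate 1 of the 24 × 24 °C controls, 5 without their replicate 2, 5 without their replicate 3, 5 without replicate 1 of the 24 × 32 °C controls, 4 without their replicate 2 and 4 without their replicate 3. In each of these 6 fits ebp, hsd17b7, srebf2 and stard4 were DEGs, while hmgcs1, MVD and lss were each lost in 5 and ldlrb in 4. With counts thinned to the depth of the smallest library it was 4. The spread was estimated over all 18 libraries. When the 3 libraries of 32 × 24 °C larvae that stood apart were left out, 12 members were lower and 0 higher. Those joining the 8 were idi1, sqlea, nsdhl and dhcr7. The share of all genes called in that fit was not counted. The omitted libraries are not part of this comparison and were picked after the values were seen. Replicate 2 of the LPS group was picked for these same genes, so the rise cannot show that the calls are robust.

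Tissue markers moved between the same libraries. Summed skeletal muscle markers were 36719 to 39958 CPM in the 24 × 32 °C controls and 23643 to 24485 CPM in the 24 × 24 °C controls, with 3 of 5 genes higher as DEGs. Skin markers were 11998 to 17397 CPM in the 24 × 32 °C controls and 8420 to 10779 CPM in the 24 × 24 °C controls, again without overlap. In edgeR 0 of 6 were DEGs, with 1 higher in DESeq2 and 1 higher at an unadjusted p under 0.05. The sum was mostly krt4 and krt5, with means of 7886 and 6529 CPM in the 24 × 32 °C controls. Of the 6 genes, 3 were positive and 3 negative (median log2 fold change 0.050). Exocrine pancreas markers were 2058 to 6656 CPM in the 24 × 32 °C controls and 1549 to 2501 CPM in the 24 × 24 °C controls, with 0 of 8 DEGs in edgeR or DESeq2 and 0 at an unadjusted p under 0.05. Hepatocyte markers summed to 2120 to 2647 CPM in the 24 × 32 °C controls and 2133 to 3338 CPM in the 24 × 24 °C controls. Of these, 0 of 11 were DEGs in edgeR or DESeq2, with 1 higher at an unadjusted p under 0.05 (median log2 fold change -0.44). Enterocyte markers were 826 to 1152 CPM in the 24 × 32 °C controls and 1080 to 1597 CPM in the 24 × 24 °C controls. Of these, 1 of 8 was lower as a DEG in edgeR and 7 of 8 were negative. Their median log2 fold change was -0.76, beside -0.69 for the cholesterol genes. Neutrophil and macrophage markers were 20.2 to 42.2 CPM in the 24 × 32 °C controls and 63.8 to 77.6 CPM in the 24 × 24 °C controls, with 1 of 3 tested lower. Most of that sum was lyz, with means of 23.3 CPM in the 24 × 32 °C controls and 63.0 CPM in the 24 × 24 °C controls. The means of marco were 3.91 and 3.76 CPM in the same groups. The part of these shifts in the cholesterol genes was not tested.

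At 32 °C, LPS-challenged larvae had more mRNA of these genes than their controls. Of the 34 tested, 4 were DEGs higher in LPS larvae and 0 lower, where 1.36% of all genes were higher and 0.592% lower. These were ggps1, hsd17b7, ebp and ldlrb. The median log2 fold change was 0.77 (all genes 0.0017), 29 of 34 were positive, and in 17 every LPS library was above every control library, as in 10.0% of all genes. At an unadjusted p under 0.05, 15 were higher and 0 lower, beside 9.62% higher and 7.15% lower over all genes. DESeq2 called 8 higher and 0 lower, beside 2.22% higher and 0.782% lower over all genes, adding npc1, CYP51A1, sqlea and hmgcs1 to the same 4. This comparison and the one between the control groups share the 24 × 32 °C controls, whose low values enter both.

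Summed over all 39 gene IDs, the level was 998 to 1193 CPM in the 24 × 32 °C LPS larvae and 659 to 727 CPM in their controls. By role, the median log2 fold change was 0.84 for the mevalonate genes, 1.14 from squalene to lanosterol, 1.32 from lanosterol to cholesterol, 0.38 for SREBP control, 0.74 for uptake and transfer and 0.20 for esterification and efflux.

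**Figure D2:**
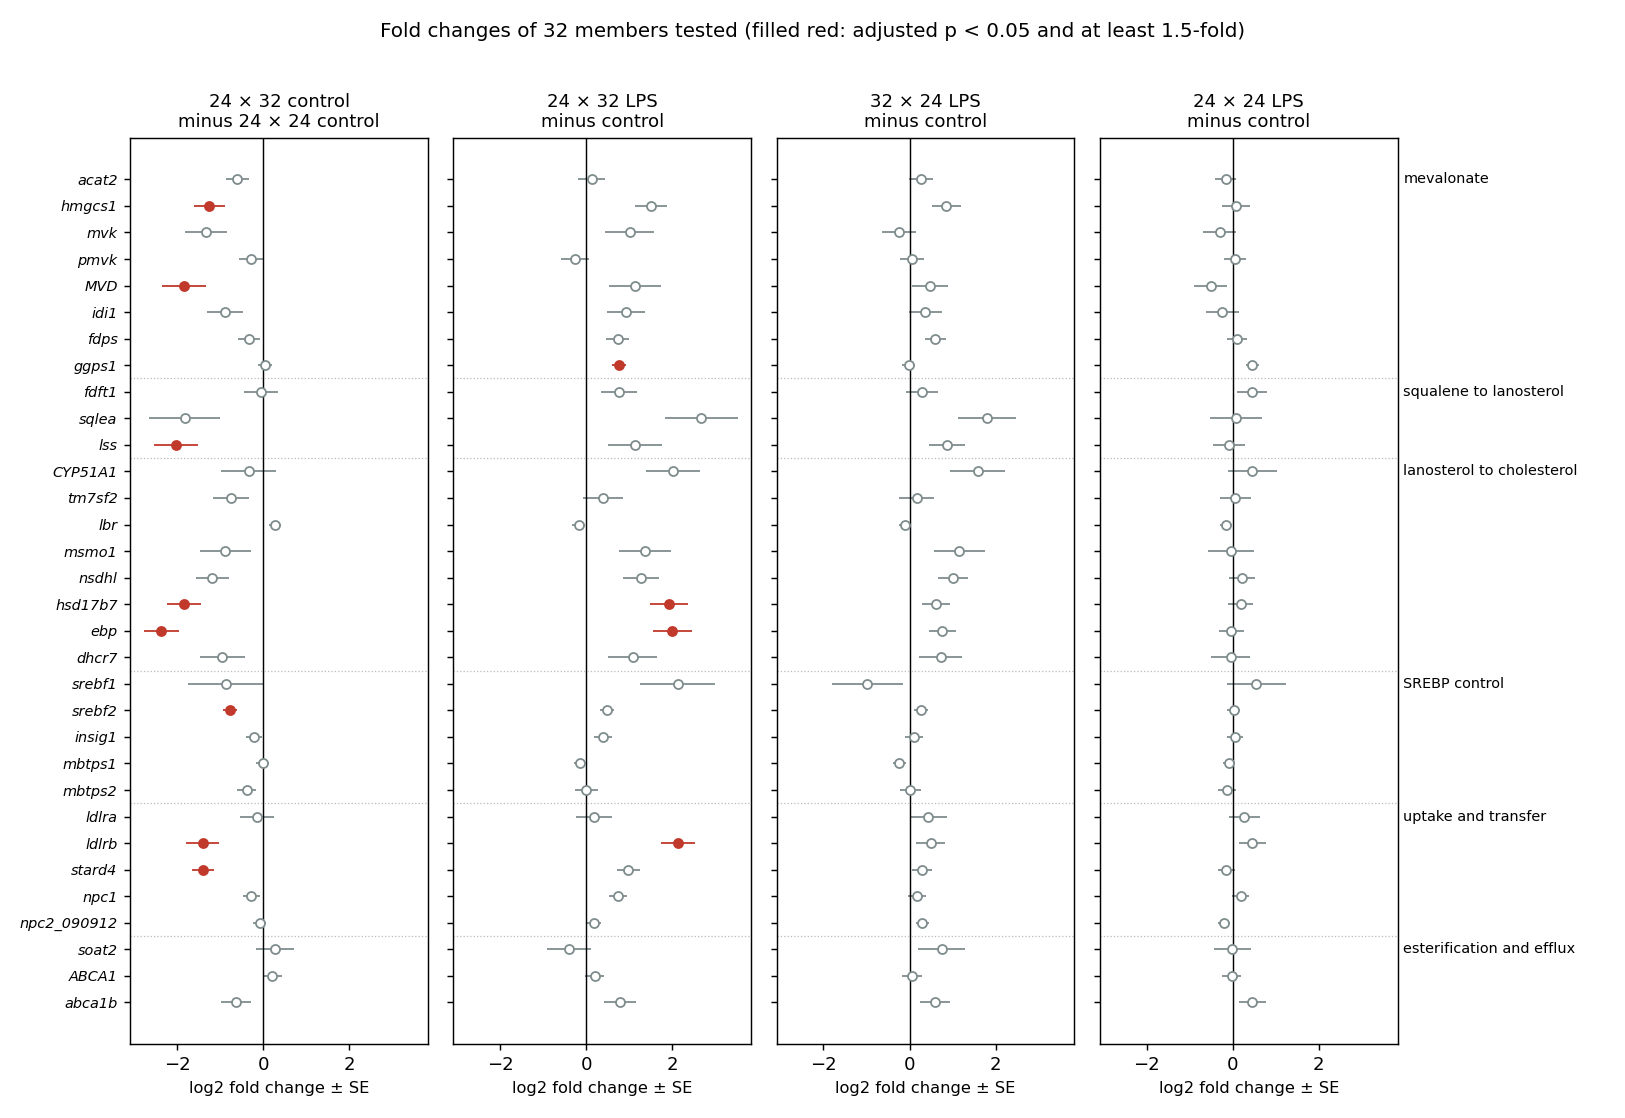
The x axis gives the log2 fold change with its SE (bars) of 32 of the 34 genes tested, listed by role down the y axis, in 4 comparisons. Filled red points are DEGs. The 24 × 32 °C controls lie left of 0 for 28 of the genes plotted against the 24 × 24 °C controls, LPS larvae at 24 × 32 °C lie right of 0 for 27 against the same controls, and no gene is a DEG in the 2 right-hand panels.

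The LPS effect at 24 × 32 °C was largest among DEGs for ldlrb. It had 48.2, 29.6 and 52.0 CPM in LPS larvae and 14.2, 8.44 and 6.23 CPM in controls. Each LPS library was more than any control library, 4.37-fold on average (log2 2.13 ± 0.39, SE, n = 3 each, edgeR adjusted p = 0.0104). The isomerase gene ebp had 5.81, 11.1 and 13.7 CPM in LPS larvae and 1.87, 2.69 and 3.36 CPM in controls, or 4.0-fold (log2 2.0 ± 0.45, edgeR adjusted p = 0.0224). For hsd17b7 the values were 9.30, 5.38 and 13.7 CPM in LPS larvae and 1.87, 2.69 and 2.88 CPM in controls, or 3.78-fold (log2 1.92 ± 0.43, edgeR adjusted p = 0.0224). Both rested on 5 to 7 counts in each control library.

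The fourth, ggps1, makes geranylgeranyl diphosphate, an isoprenoid that leaves the sterol route and is attached to small GTPases. It had 49.4, 57.3 and 56.9 CPM in LPS larvae and 35.5, 27.6 and 34.1 CPM in controls (log2 0.76 ± 0.16, edgeR adjusted p = 0.0144). Between the 24 × 32 °C and 24 × 24 °C controls its difference was 0.04 ± 0.15. It was also above every control library in the LPS larvae of 24 × 24 °C, with 44.8, 42.0 and 42.1 CPM against 35.2, 28.0 and 31.2 CPM, though not as a DEG (0.45 ± 0.15, edgeR adjusted p = 0.287).

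Several enzymes had large differences without passing the threshold in edgeR, though DESeq2 called CYP51A1, sqlea and hmgcs1. Sterol demethylase CYP51A1 had 61.6, 83.4 and 88.6 CPM in 24 × 32 °C LPS larvae and 15.3, 34.5 and 6.71 CPM in controls (2.02 ± 0.63, edgeR adjusted p = 0.121). The epoxidase sqlea had 20.3, 10.4 and 17.2 CPM in LPS larvae and 2.24, 3.45 and 1.44 CPM in controls (2.67 ± 0.84, edgeR adjusted p = 0.119), the largest fold among the 34 in this comparison. The second SQLE gene, too sparse to test, had 0.581, 0 and 2.21 CPM in LPS larvae and 2.24, 3.07 and 1.44 CPM in controls, which overlapped. For hmgcs1 the values were 62.2, 71.5 and 65.3 CPM in LPS larvae and 20.9, 27.3 and 22.5 CPM in controls, with an edgeR adjusted p of 0.0514 for a difference of 1.49 ± 0.37. The lowest LPS library was well above the highest control library.

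Of the control proteins, srebf2 had 81.4, 75.3 and 75.4 CPM in 24 × 32 °C LPS larvae and 67.2, 44.1 and 54.7 CPM in controls (0.48 ± 0.17, edgeR adjusted p = 0.132). It did not overlap but was not a DEG. The retention gene insig1 overlapped, with 38.9, 33.1 and 39.2 CPM in LPS larvae and 40.3, 21.5 and 23.0 CPM in controls (0.38 ± 0.21, edgeR adjusted p = 0.373). The difference in srebf1 came from 1 library, since LPS larvae had 2.91, 12.7 and 1.32 CPM and controls 1.49, 2.30 and 0 CPM (2.12 ± 0.87, edgeR adjusted p = 0.221). Without replicate 2 of the LPS group it was 0.57. The same library held 7.30 CPM of scap, against 1.16 and 0 CPM in the other LPS libraries and 0.373, 0.768 and 0.480 CPM in controls. The carrier stard4 and the lysosomal transporter npc1 were above all controls (0.98 ± 0.28 and 0.74 ± 0.21, edgeR adjusted p = 0.0676 and 0.0656).

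The count of 4 also depended on single libraries. It was 2 without control replicate 1, 0 without control replicate 2 and 0 without control replicate 3. In the last pair of edgeR fits, 16 and 12 members were higher at an unadjusted p under 0.05, and the edgeR adjusted p of ldlrb was 0.0578 and 0.0550. The share of all genes higher at that p was not counted in these fits and was 9.62% in the main one. Without LPS replicate 1, 2 or 3 the counts were 5, 3 and 2. After the 3 libraries of 32 × 24 °C larvae that stood apart were left out, 10 members were higher and 0 lower. Those added were hmgcs1, idi1, sqlea, CYP51A1, stard4 and npc1. The share of all genes called in that fit was not counted. As above, that omission was chosen after the values of these genes were seen, so the rise cannot show that the calls are robust. Skin markers summed to 6648 to 9472 CPM in LPS larvae and 11998 to 17397 CPM in controls, with 1 of 6 higher and 2 lower as DEGs. Hepatocyte markers were 1946 to 3693 CPM in LPS larvae and 2120 to 2647 CPM in controls, with 0 of 11 DEGs in edgeR or DESeq2 and 0 at an unadjusted p under 0.05 (median log2 fold change 0.39). The upper end was LPS replicate 2 alone, as replicates 1 and 3 had 1946 and 2100 CPM. Enterocyte markers were 743 to 1738 CPM in LPS larvae and 826 to 1152 CPM in controls, with 0 of 8 DEGs in edgeR (median log2 fold change 0.25). There too the upper end was LPS replicate 2, with 743 and 1014 CPM in replicates 1 and 3. Skeletal muscle markers were 31927 to 35172 CPM in LPS larvae and 36719 to 39958 CPM in controls. These did not overlap, with 5 of 5 negative and 0 DEGs in edgeR. Neural markers were 367 to 539 CPM in LPS larvae and 420 to 562 CPM in controls. Of these, 0 of 4 were DEGs in edgeR or DESeq2, with 2 lower and 0 higher at an unadjusted p under 0.05. The part of these tissues in the result was not tested.

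Among LPS-challenged larvae, the cholesterol genes of the 24 × 32 °C and 24 × 24 °C groups had medians close to each other. In edgeR 0 of the 34 were DEGs between 24 × 32 °C and 24 × 24 °C LPS larvae, where 3.09% of all genes were. At an unadjusted p under 0.05 there was 1 higher and 0 lower (19.3% of all genes in either direction), and DESeq2 called 0 (3.75%). The median log2 fold change was 0.15 (all genes 0.030). For ebp, whose LPS libraries at 24 × 24 °C had 11.3, 15.8 and 12.3 CPM, the difference was -0.33 ± 0.33, for hsd17b7 -0.12 ± 0.33, for ldlrb 0.27 ± 0.33 and for stard4 -0.27 ± 0.23. CYP51A1 had 61.6, 83.4 and 88.6 CPM in 24 × 32 °C LPS larvae, above the 30.1, 28.4 and 45.2 CPM in 24 × 24 °C LPS larvae, with a difference of 1.22 ± 0.58 (edgeR adjusted p = 0.271). It was a DEG in edgeR on those 6 libraries alone (adjusted p = 0.00944). On the same scale lss was the lowest, at -0.80 ± 0.47.

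**Figure D3:**
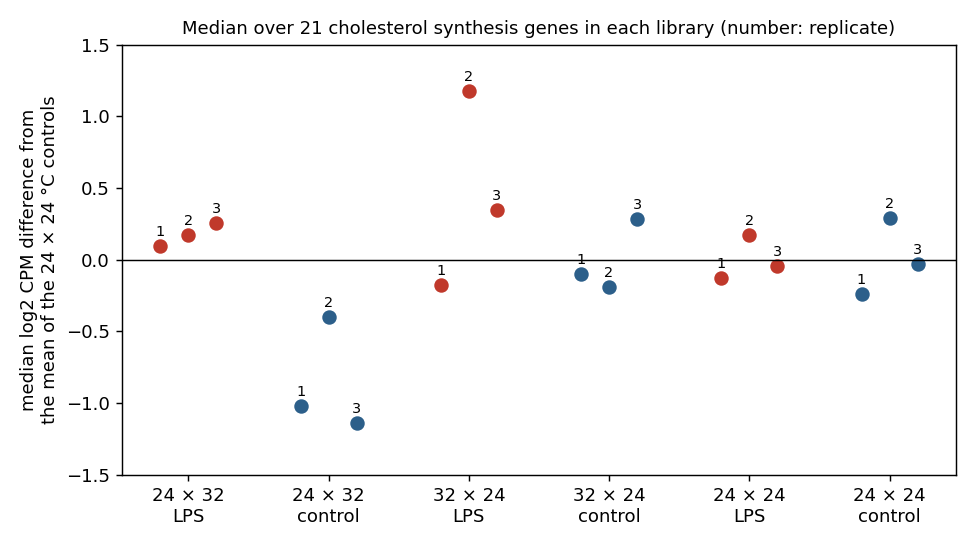
Each point is 1 library, numbered by replicate, and the y axis is the median over the 21 tested synthesis genes of the log2 CPM difference from the mean of the 24 × 24 °C controls. The 3 libraries of the 24 × 32 °C controls lie at -0.40 to -1.14, and replicate 2 of the 32 × 24 °C LPS group at 1.17.

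Read library by library, the 21 tested synthesis genes from acat2 to dhcr7 had a median log2 difference from the 24 × 24 °C control mean of 0.09, 0.17 and 0.25 in the 24 × 32 °C LPS libraries and of -1.02, -0.40 and -1.14 in their controls. In the 24 × 24 °C larvae it was -0.13, 0.17 and -0.04 with LPS and -0.24, 0.29 and -0.03 in controls. The 24 × 32 °C controls were thus the only group with all 3 libraries below the range of the 24 × 24 °C controls.

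With LPS at 24 × 24 °C the median of these genes was near 0. Of the 34, 0 were DEGs in edgeR (0.426% of all genes), with 1 higher at an unadjusted p under 0.05 (6.82% of all genes in either direction) and 0 called by DESeq2 (0.871%). Of the 34, 17 were positive, and the median log2 fold change was 0.0085. The gene at p under 0.05 was ggps1, described above. For srebf2 the values were 92.9, 103 and 91.4 CPM in LPS larvae and 112, 73.1 and 98.6 CPM in controls (0.02 ± 0.15). Levels of insig1 were 29.96, 32.2 and 42.1 CPM in LPS larvae and 30.2, 36.5 and 32.1 CPM in controls (0.04 ± 0.19). In srebf1 replicate 3 of the LPS group was high, with 2.26, 1.71 and 9.76 CPM in LPS larvae and 2.50, 2.83 and 2.12 CPM in controls (0.55 ± 0.68).

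Whether the LPS effect differed between 24 × 32 °C and 24 × 24 °C larvae was tested as an interaction. In edgeR 0 of the 34 passed (0.00636% of all genes did), 7 were positive and 0 negative at an unadjusted p under 0.05 (7.54% of all genes in either direction), and DESeq2 called 0 (0.172%). The median of the interaction was 0.60 on the log2 scale, and 29 of 34 were positive. The 7 were hmgcs1 (1.42 ± 0.50), MVD (1.63 ± 0.72), sqlea (2.59 ± 1.05), hsd17b7 (1.73 ± 0.53), ebp (2.03 ± 0.54), ldlrb (1.67 ± 0.50) and stard4 (1.12 ± 0.34). Their edgeR adjusted p ran between 0.348 (ebp) and 0.645 (MVD). When edgeR was run on the 12 libraries of these 4 groups, sqlea and hmgcs1 passed (adjusted p = 0.0431 each). The share of all genes that passed in that fit was not counted. For these 2 genes a different LPS effect at the 2 challenge temperatures was called in that fit and not in the one on all 18 libraries. Tissue markers moved in the same interaction. The median was 1.06 for enterocyte (8 of 8 positive), 0.61 for hepatocyte (11 of 11) and 0.57 for exocrine pancreas markers. It was 0.051 for skin, -0.32 for skeletal muscle, -0.33 for neural and -0.39 for neutrophil and macrophage markers. The part of tissue content in the interaction was not tested.

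LPS at 32 × 24 °C gave values that rested largely on 1 pool. In edgeR 0 of the 34 were DEGs (0.0318% of all genes), 7 were higher and 0 lower at an unadjusted p under 0.05 (5.38% of all genes in either direction), and DESeq2 called 0 (0.382%). The median log2 fold change was 0.33, with 28 of 34 positive, and it was 0.076 without LPS replicate 2. That library was the highest of its group in 23 of the 34 genes, while it was highest in 34.7% of all genes. This count alone did not set it apart. Replicate 2 of the 24 × 24 °C controls was highest of its group in 22 (32.3% of all genes). Replicate 3 of the 32 × 24 °C controls was highest in 21 (31.4%). In LPS replicate 2 of 32 × 24 °C the median over the 21 synthesis genes was 1.17 above the 24 × 24 °C control mean, with all 21 above that mean. LPS replicates 1 and 3 were at -0.17 and 0.35.

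**Figure D4:**
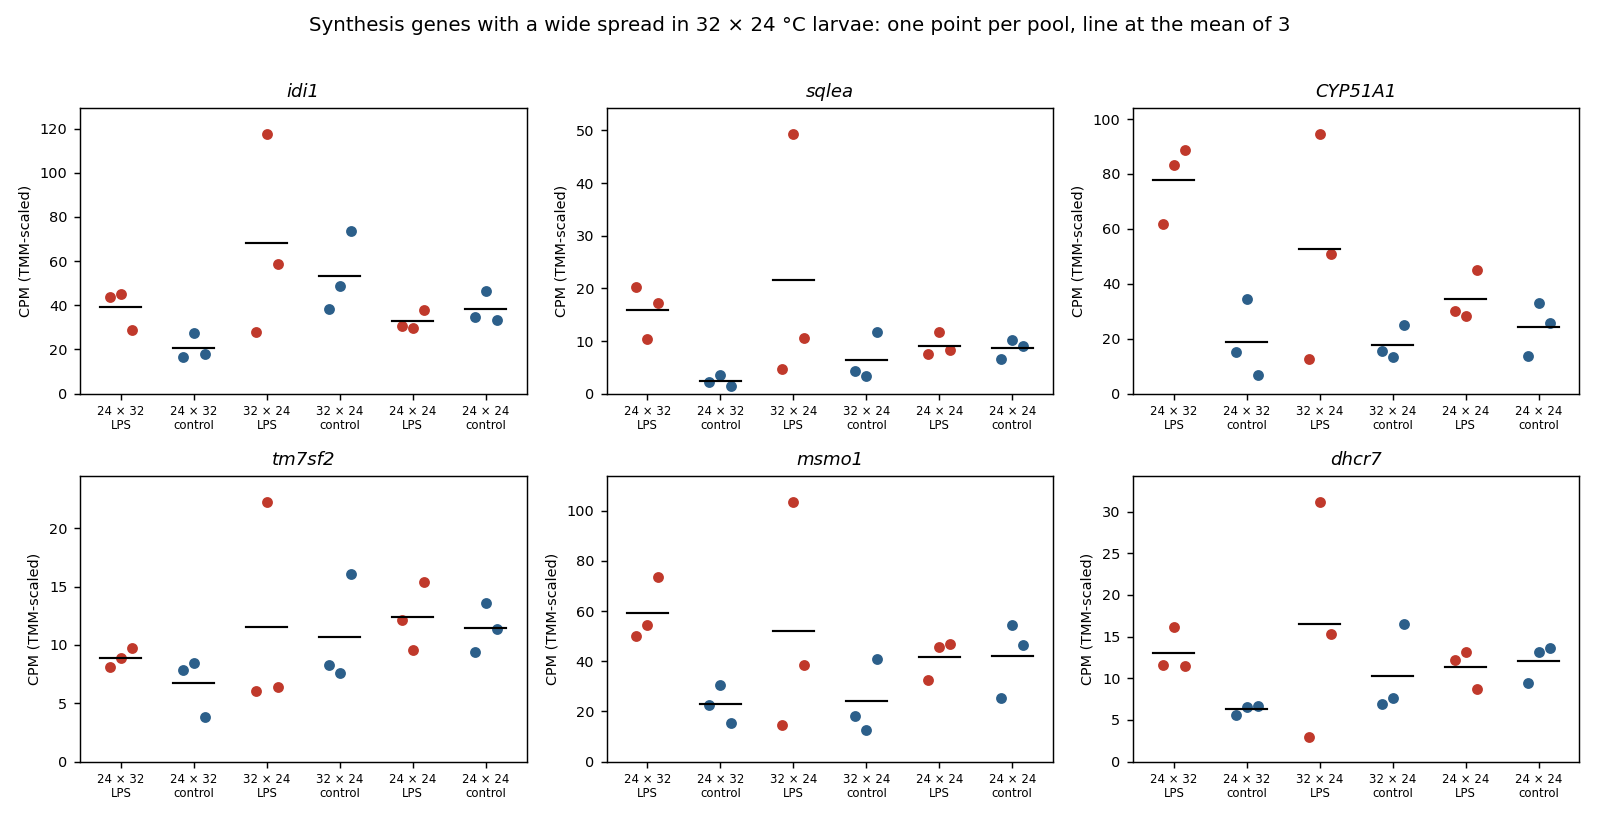
Each panel gives CPM (TMM-scaled, axis from 0) of 1 synthesis gene by group, with 1 point per library and a line at the mean of 3. These 6 genes were picked after their values were seen, for their spread. Replicate 2 of the 32 × 24 °C LPS group, the middle point, is the highest of all 18 libraries in every panel.

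The width was clearest in sqlea, with 4.73, 49.3 and 10.6 CPM in the 32 × 24 °C LPS larvae and 4.30, 3.42 and 11.7 CPM in controls (1.80 ± 0.67, edgeR adjusted p = 0.786). In dhcr7, the reductase of the last step, it was 3.01, 31.1 and 15.3 CPM in LPS larvae and 6.88, 7.60 and 16.5 CPM in controls. The isomerase gene ebp was also highest in replicate 2, with 11.6, 31.1 and 20.0 CPM in LPS larvae and 11.5, 11.4 and 14.5 CPM in controls (0.77 ± 0.31, edgeR adjusted p = 0.843). The median SD of the members' log2 CPM in that LPS group was 0.67, against 0.29 over all genes. In the other 5 groups it was 0.25 to 0.35, against 0.16 to 0.30 over all genes. The members' SD was above that of all genes in every group.

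Not all members widened in that group. The regulator srebf2 had 84.6, 92.3 and 109 CPM in 32 × 24 °C LPS larvae and 82.9, 80.5 and 75.2 CPM in controls (0.26 ± 0.16, edgeR adjusted p = 0.987), with replicate 3 the highest. Values of insig1 were 32.2, 36.7 and 37.4 CPM in LPS larvae and 30.7, 29.6 and 39 CPM in controls, and those of srebf1 2.15, 1.85 and 2.13 CPM in LPS larvae and 2.29, 5.70 and 4.42 CPM in controls. Hepatocyte markers in replicates 1, 2 and 3 of the LPS group were 795, 3864 and 2821 CPM. The library high in synthesis genes was thus also the highest of the 3 in these, and replicate 1 was low in both. In the 32 × 24 °C controls the markers were 819, 2469 and 2849 CPM, and the synthesis medians -0.10, -0.19 and 0.29. There replicate 3 was highest in both, but replicate 1 was lowest in the markers only. Other tissues moved in the same libraries. Enterocyte markers were 267, 1580 and 1101 CPM in LPS replicates 1, 2 and 3 and 379, 1029 and 1427 CPM in controls. Exocrine pancreas markers were 171, 1816 and 1185 CPM with LPS and 209, 976 and 1188 CPM in controls. Neural markers were instead highest in replicate 1, at 554, 365 and 374 CPM with LPS and 551, 402 and 356 CPM in controls. The part of tissue content in the spread was not tested.

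No member was a DEG between larvae incubated at 32 °C, then cooled to 24 °C, and larvae kept at 24 °C throughout. So few of all genes were DEGs here that this says little about the members. Between the 32 × 24 °C and 24 × 24 °C controls, 0 of 34 passed in edgeR (0.490% of all genes did), with 1 higher and 1 lower at an unadjusted p under 0.05 (12.7% of all genes in either direction), 0 called by DESeq2 (1.21%) and a median log2 fold change of -0.13. The nominal pair were lbr (0.39 ± 0.14) and the tested npc2 gene (-0.38 ± 0.15). Between the LPS groups of 32 × 24 °C and 24 × 24 °C, 0 of 34 passed in edgeR (0.254% of all genes did), with 6 higher and 0 lower at an unadjusted p under 0.05 (9.15% of all genes in either direction), 0 called by DESeq2 (0.725%) and a median of 0.27, or -0.017 without LPS replicate 2 of the 32 × 24 °C group. The LPS effect at 32 × 24 °C minus that at 24 × 24 °C had 0 of 34 in edgeR (0% of all genes), with 1 positive and 1 negative at an unadjusted p under 0.05 (2.57% of all genes in either direction), 0 by DESeq2 (0%) and a median of 0.33, or 0.069 without that library.

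Lists of neighbouring pathways held 1 DEG each between the control groups, where 6.21% of all genes were DEGs in either direction. Of 13 tested among 21 matched IDs of other sterol genes, such as bile acid enzymes and sterol exporters, 1 was a DEG lower and 0 higher in the 24 × 32 °C controls against the 24 × 24 °C controls, with a median log2 fold change of -0.12. It was cyp46a1.1, which encodes a sterol hydroxylase that in mammals clears cholesterol from neurons. Its values were 0, 1.15 and 0.480 CPM in the 24 × 32 °C controls and 2.31, 3.58 and 4.11 CPM in the 24 × 24 °C controls (-2.57 ± 0.62, edgeR adjusted p = 0.0143). DESeq2 called 0 of the list. Its filter on low counts gave no adjusted p to MVD and lss, whose means were higher in both groups. Whether cyp46a1.1 had an adjusted p in DESeq2 was not checked, so the 0 is no evidence against it. Of the 15 tested fatty acid and lipid synthesis genes, the other branch of SREBP control, 1 was a DEG higher and 0 lower in the same comparison (median -0.11). That was lpin1, lipin, a phosphatidate phosphatase, at 231, 225 and 179 CPM in the 24 × 32 °C controls and 98.3, 95.9 and 111 CPM in the 24 × 24 °C controls (1.06 ± 0.27, edgeR adjusted p = 0.0263). With LPS at 24 × 32 °C neither list held a DEG in edgeR or DESeq2. At an unadjusted p under 0.05, 2 of the other sterol genes were higher and 2 lower, and 2 of the fatty acid genes higher and 0 lower, where 16.8% of all genes were in either direction. Their medians were 0.36 for other sterol genes and 0.089 for fatty acid synthesis, beside 0.77 for the cholesterol genes.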

How the data were processed

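The authors deposited raw counts per Ensembl gene, without normalization, from whole-larva poly(A) libraries sequenced in pairs. The submitters' processing notes name bcl2fastq, FastQC 0.11.5, cutadapt 1.12, TopHat2 2.1.0, SAMtools, HTSeq 0.6.1p1 and DESeq2 1.11.1, and the GRCz10 build. Neither the paper nor the labels state the strand setting, and the paper names the libraries only as TruSeq. Whether reads of overlapping antisense genes were kept apart is therefore not known. No coordinates or sequences were used here.

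Members were matched by zebrafish name (32 in the gene name table, 2 in the supplementary tables) or by human symbol (5), and some are not reported here by name. In R 4.3.3 with edgeR 4.0.16, the 15722 genes passing filterByExpr (minimum count 10 and minimum total 15, by group) were TMM-scaled and fitted with robust quasi-likelihood to 1 mean per group over 18 libraries, and p-values were Benjamini-Hochberg adjusted over all of them. The step was tested on simulated data. A prior count of 2 was used for log2 CPM. Values are given per library for members that were DEGs in any of the 9 comparisons and for srebf1, srebf2, scap and insig1, and a few others were added after their values were seen. Members, lists and tests were chosen with earlier results of these data known. Alternatives were DESeq2 1.42.0, its size factors, no filter, no fold threshold, only a comparison's libraries, a replicate block, thinning (seed 20) and leaving out each library. Omission of 3 libraries was chosen after seeing the data.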

Additional observations from a re-analysis of the deposited data

How the results depend on the processing

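Over all alternatives the median log2 fold change of the 34 members ran between -0.94 and -0.52 for the 24 × 32 °C against the 24 × 24 °C controls and between 0.71 and 0.83 for LPS at 24 × 32 °C. For LPS at 32 × 24 °C it ran between 0.076 and 0.68 as single libraries were left out, and between the LPS groups of 32 × 24 °C and 24 × 24 °C between -0.017 and 0.44. For LPS at 24 × 32 °C (4 DEGs), DESeq2 on all 18 libraries gave 8, edgeR on the comparison's 6 libraries 7 and the fit without 3 libraries of 32 × 24 °C larvae (chosen after seeing the data) 10, while leaving out 1 library gave 0 to 5. For the 24 × 32 °C against the 24 × 24 °C controls (8 DEGs), edgeR on the 6 libraries gave 14, counts thinned to the smallest library 4, and leaving out 1 library 4 to 6. With edgeR on their own libraries, 1 member was called between the LPS groups of 24 × 32 °C and 24 × 24 °C and 2 in the interaction of LPS with challenge temperature, where the fit on all 18 called 0. The cause of these moves was not tested. DESeq2 apart, the share of all genes called was not counted in any refit. Among the named members refitted, the only reversed sign was that of CYP51A1 between the control groups, 0.025 without 24 × 32 °C control replicate 3 against -0.34 with it, and leaving out each of the 6 libraries in turn gave -1.11 to 0.025.

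Replicate numbers showed no pairing in the median over all groups. The correlation of deviations from group means was 0.018 in the median over 45 same-numbered pairs (-0.24 to 0.56). It was -0.014 over 90 others (-0.50 to 0.39). Pairs were pooled over groups, so pairing of LPS and control libraries within 1 temperature group was not tested. At 32 × 24 °C, replicate 1 was low in hepatocyte markers both with LPS (795 CPM) and in controls (819 CPM). The same held for enterocyte markers (267 and 379 CPM) and exocrine pancreas markers (171 and 209 CPM). With the number as a replicate block, 6 members were DEGs for LPS at 24 × 32 °C, the 4 with npc1 and hmgcs1, and 8 between the control groups, where ldlrb was lost (edgeR adjusted p = 0.0507) and nsdhl gained (0.0318). MVD, lss, ebp and hsd17b7 had 2 to 7 counts in each 24 × 32 °C control library, which limits their precision.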
